A study of Mus musculus with 12 samples.

Results

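Expression of 10 genes for surface receptors and surface proteins of homeostatic microglia was examined in sorted brain cells: P2ry12, P2ry13, P2ry6, Gpr34, Cx3cr1, Tmem119, Selplg, P2rx7, P2rx4 and Adora3. The genes were chosen by name, and their rows were found by matching the Ensembl identifiers of the count table to symbols, which gave 10 of the 47224 genes with a symbol. All 10 reached the minimum count, so that each was among the 4210 genes tested. Log2 fold changes (log2FC) compare RFPpos with RFPneg, and SE is the standard error. The samples came from the brains of 5 old male p16-3MR mice on a C57BL/6 background, aged 113, 115, 116, 116 and 116 weeks (mice 1 to 5). Cells of this strain carry a transgene whose p16 promoter drives a reporter with red fluorescent protein, so the sort read the transgene and not the p16 protein. Viable cells, taken as DAPI negative and Draq5 positive, were sorted by fluorescence into RFPneg (RFPLow) and RFPpos (RFPHigh) cells, and each mouse gave 1 sample of each, 5 and 5 in all. Both populations were sorted from mixed brain cells and not from purified microglia.

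Microglia at rest survey the brain with fine processes and carry a set of surface receptors that read nucleotides and other signals from nearby cells. ATP and ADP released from active or damaged cells act on ion channels of the P2X family and on G protein-coupled receptors of the P2Y family, and surface enzymes break these nucleotides down to adenosine, which acts on its own receptors. Many genes of this set are known to be expressed at high levels in resting microglia and at lower levels in activated ones.

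The libraries held between 177287 and 415834 counts on genes in RFPneg and between 222560 and 289713 in RFPpos. Levels are given as CPM, counts scaled by the total on genes of each library after adjustment by the trimmed mean of M values (TMM). Each transcript gives 1 tag near its end, so that CPM of different genes can be compared without correction for length. At this depth a count of 0 in a library allows up to 3 counts, between 7.27 and 17.0 CPM. Cdkn2a, the gene whose promoter the transgene carries, had 2, 0, 0, 2 and 4 counts in the RFPneg samples of mice 1 to 5 and 0 counts in all 5 RFPpos samples. These counts are near the limit, and a difference in Cdkn2a was not detectable at this depth. The paper reports that cells rich in p16 transcript were enriched in its sorted RFPHigh population. Transgene reads were not analysed here. The 20 other microglia genes, none of them among the 10, were all above the minimum count, with a summed level of 14350 ± 2394 CPM (SD, n = 5) in RFPneg and 31118 ± 4075 CPM (SD, n = 5) in RFPpos, so that both populations held microglial RNA.

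Of the 10 genes, 8 were higher in RFPpos at an adjusted p under 0.05 (edgeR quasi-likelihood test with the mouse as a block, Benjamini-Hochberg adjustment over all 4210 genes), and none was lower. Across all tested genes, 10.1% were higher and 11.6% lower by the same rule. The 8 genes were P2ry12, P2ry13, P2ry6, Gpr34, Cx3cr1, Tmem119, Selplg and P2rx7, while P2rx4 and Adora3 did not pass. With a log2FC above 1 required as well, 5 of the 10 passed, against 5.75% of all tested genes. P2ry12 and P2ry13 lay at this cut, and without mouse 4 they were under it (0.92 and 0.96), which left 3 genes. P2ry12 was also under the cut without mouse 2 (0.96), and P2ry13 without mouse 3 (0.94). P2ry6 lay just under the cut (0.99) and was above it without mouse 1 (1.17) and without mouse 5 (1.04). The median log2FC of the 10 genes was 1.01, and that of all tested genes was −0.03. Every RFPpos sample lay above every RFPneg sample for 6 of the 10 genes, against 7.84% of the tested genes. In these bulk samples fewer cells of a type and less RNA per cell cannot be told apart.

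**Figure D1:**
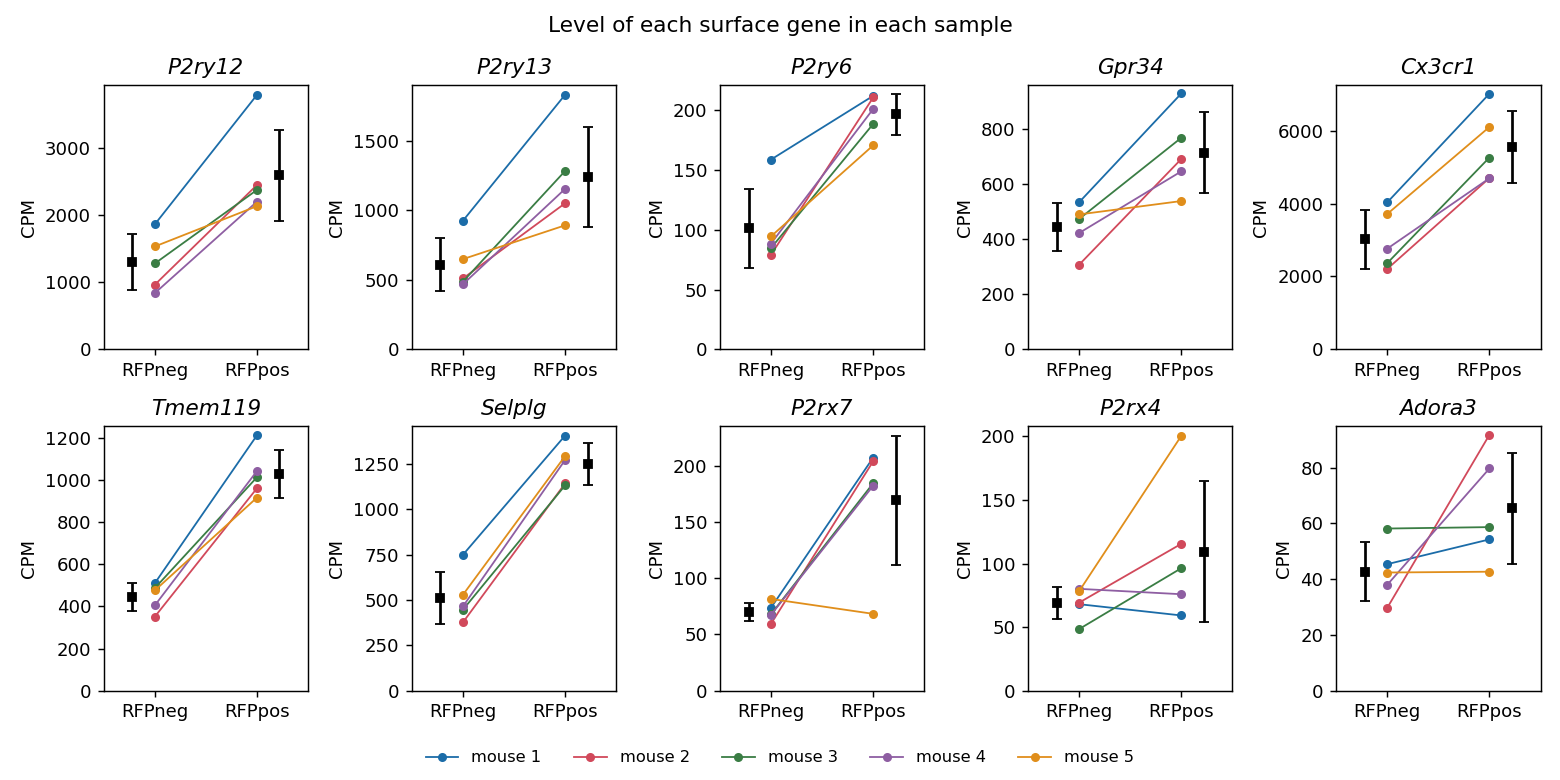
Level of each of the 10 genes in CPM in the RFPneg and RFPpos sample of each mouse, joined by a line per mouse, with the mean and SD of each population as black squares and bars (n = 5). RFPpos is higher in all 5 mice for 8 of the genes, and for P2rx7 and P2rx4 the RFPpos sample of mouse 5 lies apart from the others.

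The ADP receptors P2ry12 and P2ry13 rose by nearly the same amount. P2ry12 (ENSMUSG00000036353; GRCm38 chromosome 3, 59216272 to 59262871, minus strand) encodes the Gi-coupled ADP receptor through which microglial processes move towards a site of damage. Its level in mice 1 to 5 was 1865, 965, 1282, 839 and 1535 CPM in RFPneg and 3797, 2454, 2380, 2204 and 2137 CPM in RFPpos. The populations did not overlap, and mouse 1 had the highest value in both. Log2FC came to 1.02 (SE 0.18, adjusted p = 3.70e-04), with higher values in RFPpos in 5 of 5 mice. P2ry13 (ENSMUSG00000036362; chromosome 3, 59207892 to 59210882, minus strand), another Gi-coupled receptor for ADP, had 924, 510, 487, 468 and 649 CPM in RFPneg and 1830, 1050, 1282, 1153 and 892 CPM in RFPpos. The RFPpos sample of mouse 5 lay under the RFPneg sample of mouse 1, so that the populations overlapped, although RFPpos was higher within each of the 5 mice. Its log2FC was 1.04 (SE 0.18, adjusted p = 3.92e-04).

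P2ry13 and P2ry12 lie next to each other on the same strand with 5389 bases and no annotated gene between them, and both overlap the gene Med12l on the opposite strand, which had 33 counts in the 10 samples together. Their promoters are shown because the genes are neighbours. A similar rise was not particular to them: all 20 other microglia genes rose, among them C1qb (log2FC 1.04) and Itgam (1.03). The part of the promoters in the rise was not tested. Promoter windows from RefSeq (GRCm38.p6, from 250 bases before to 50 after a transcription start) were found for 6 of the 10 genes, 7 windows in all, and were searched on both strands for AGGAAG, a core sequence that ETS factors such as PU.1 recognise, and for TGACTCA, the sequence of AP-1 sites. Capitals mark the matches, and a reverse complement match is written as it stands on the strand shown, 5′ to 3′ along the gene. The P2ry13 window is chr3:59210833-59211132 (minus strand) and the P2ry12 window is chr3:59262936-59263235 (minus strand). The RefSeq start of P2ry12 used for this window lies upstream of the gene as annotated in GENCODE, and the window has no base in common with it.
P2ry13: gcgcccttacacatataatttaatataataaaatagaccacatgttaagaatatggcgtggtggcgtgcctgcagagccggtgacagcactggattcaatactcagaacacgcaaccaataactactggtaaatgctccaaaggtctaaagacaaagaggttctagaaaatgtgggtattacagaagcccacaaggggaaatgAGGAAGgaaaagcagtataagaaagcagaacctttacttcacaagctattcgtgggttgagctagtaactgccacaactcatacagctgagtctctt
P2ry12: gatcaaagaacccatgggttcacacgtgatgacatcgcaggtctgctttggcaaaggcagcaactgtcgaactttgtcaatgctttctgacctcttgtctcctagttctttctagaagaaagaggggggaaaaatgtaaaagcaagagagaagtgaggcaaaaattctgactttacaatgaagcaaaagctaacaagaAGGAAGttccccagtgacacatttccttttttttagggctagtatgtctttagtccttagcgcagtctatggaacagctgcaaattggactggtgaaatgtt
Each of the windows held 1 AGGAAG and no TGACTCA. Of the 7 windows, 4 held AGGAAG (P2ry13, P2ry12, Adora3 and 1 of 2 P2rx7 windows), against 35.4% of all 32851 windows. TGACTCA was found in 2 of the 7, those of Adora3 and of the other P2rx7 start, against 5.2% of all windows. The windows of Cx3cr1 and P2rx4 held neither sequence.

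P2ry6 (ENSMUSG00000048779; chromosome 7, 100937630 to 100974649, minus strand), the Gq-coupled receptor for UDP that is known for its part in microglial phagocytosis, was expressed at a lower level. It had 159, 79.2, 84.8, 88.5 and 94.5 CPM in RFPneg and 212, 211, 189, 201 and 171 CPM in RFPpos. The populations did not overlap, and the RFPneg sample of mouse 1 lay far above the other 4. The log2FC was 0.99 (SE 0.23, adjusted p = 0.00388).

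Gpr34 (ENSMUSG00000040229; chromosome X, 13632089 to 13640858, plus strand), a Gi-coupled receptor for lysophosphatidylserine, was the gene with the smallest rise among the 8. Its level was 533, 307, 472, 422 and 489 CPM in RFPneg and 927, 690, 767, 645 and 538 CPM in RFPpos. The lowest RFPpos value, in mouse 5, was within 5 CPM of the highest RFPneg value, in mouse 1. Log2FC came to 0.68 (SE 0.19, adjusted p = 0.0127), and the adjusted p from edgeR was 0.0805 without mouse 2, 0.0541 without mouse 3 and 0.0915 when the reads on no gene were counted in the library size. In these fits the log2FC was 0.58, 0.67 and 0.53. Gpr34 lies inside an intron of Cask on the opposite strand, and Cask also had a log2FC of 1.00 (adjusted p = 0.0429) with 180 counts in all.

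Cx3cr1 (ENSMUSG00000052336; chromosome 9, 119901616 to 120069879, minus strand), the receptor for the neuronal chemokine fractalkine, was the most abundant of the 10 genes in every sample. It had 4032, 2207, 2365, 2762 and 3713 CPM in RFPneg and 7013, 4700, 5263, 4694 and 6101 CPM in RFPpos. All RFPpos values lay above all RFPneg values, and mice 1 and 5 were the highest in both populations. Its log2FC was 0.90 (SE 0.16, adjusted p = 4.37e-04).

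Tmem119 and Selplg, on chromosome 5 with 18019 bases and 1 annotated gene between them, had the smallest adjusted p of the 10 genes. Tmem119 (ENSMUSG00000054675; 113793729 to 113800516, minus strand), a membrane protein used as a marker of resident microglia, ranged from 351 to 510 CPM in RFPneg and from 917 to 1213 CPM in RFPpos. Its log2FC was 1.21 (SE 0.17, adjusted p = 4.96e-05). Selplg (ENSMUSG00000048163; 113818536 to 113832644, minus strand), which encodes the selectin ligand PSGL-1, had 748, 376, 446, 464 and 528 CPM in RFPneg and 1406, 1142, 1131, 1271 and 1293 CPM in RFPpos. The RFPpos values of Selplg were all well above the highest RFPneg value, that of mouse 1. The log2FC was 1.32 (SE 0.18, adjusted p = 2.09e-05), the largest of the 10.

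The ATP-gated channels P2rx7 and P2rx4 lie close together on chromosome 5, with 16111 bases and 1 annotated gene between them, and only P2rx7 passed the test. P2rx7 (ENSMUSG00000029468; 122643911 to 122691432, plus strand), a channel opened by high ATP that is known to trigger the inflammasome, had 73.7, 59.4, 67.8, 67.5 and 81.5 CPM in RFPneg and 207, 204, 184, 182 and 68.3 CPM in RFPpos. In mice 1 to 4 the RFPpos values were close together and far above all RFPneg values, whereas mouse 5 had less in RFPpos (16 counts) than in RFPneg (25 counts). Log2FC came to 1.19 (SE 0.29, adjusted p = 0.00531) with all mice and 1.53 (adjusted p = 3.57e-04) without mouse 5. P2rx4 (ENSMUSG00000029470; 122707544 to 122729738, plus strand), a channel with a higher affinity for ATP, had 68.0, 69.3, 48.5, 80.1 and 78.2 CPM in RFPneg and 59.2, 116, 96.4, 75.9 and 201 CPM in RFPpos. Here the RFPpos sample of mouse 5 was the highest, and the populations overlapped, with RFPpos higher in 3 of 5 mice. Its log2FC was 0.63 (95% confidence interval 0.00 to 1.26, adjusted p = 0.153) and 0.41 (adjusted p = 0.442) without mouse 5. The difference between the fold changes of both channels was not tested.

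The promoters of both channels are shown beside these opposite values in mouse 5. The P2rx7 window at the start of the annotated gene is chr5:122643677-122643976 (plus strand) and the P2rx4 window is chr5:122707294-122707593 (plus strand), with the same marks as above.
P2rx7: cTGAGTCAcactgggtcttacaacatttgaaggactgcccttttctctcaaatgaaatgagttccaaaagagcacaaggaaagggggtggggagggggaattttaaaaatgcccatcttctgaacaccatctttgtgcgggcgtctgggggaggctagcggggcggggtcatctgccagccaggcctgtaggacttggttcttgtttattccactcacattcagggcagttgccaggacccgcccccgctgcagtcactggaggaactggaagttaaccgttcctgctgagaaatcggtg
P2rx4: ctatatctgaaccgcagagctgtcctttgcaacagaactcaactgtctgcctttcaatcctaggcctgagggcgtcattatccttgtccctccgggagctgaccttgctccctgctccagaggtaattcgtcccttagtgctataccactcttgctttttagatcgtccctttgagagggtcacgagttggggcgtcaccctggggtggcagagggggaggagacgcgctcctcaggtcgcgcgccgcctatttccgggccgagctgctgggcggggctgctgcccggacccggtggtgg
The P2rx7 window held 1 TGACTCA in reverse complement, and the P2rx4 window held no match. G and C made up 53.3% of the P2rx7 window and 60.3% of the P2rx4 window, against 42.3% in both windows of P2ry12 and P2ry13.

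Adora3 (ENSMUSG00000000562; chromosome 3, 105870858 to 105908926, plus strand), the Gi-coupled A3 adenosine receptor, was the least abundant of the 10 genes. It had 45.4, 29.7, 58.1, 38.0 and 42.4 CPM in RFPneg and 54.2, 91.8, 58.7, 79.7 and 42.7 CPM in RFPpos, with 143 counts in all 10 samples. The values were nearly equal in mice 3 and 5, and clearly higher in RFPpos in mice 2 and 4. The log2FC was 0.57 (95% confidence interval −0.21 to 1.36, adjusted p = 0.313), and 0.35 (adjusted p = 0.672) without mouse 2. Adora3 shares exons on the same strand with Tmigd3, which had 1 count, so that its counts are uncertain where reads fell on both.

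**Figure D2:**
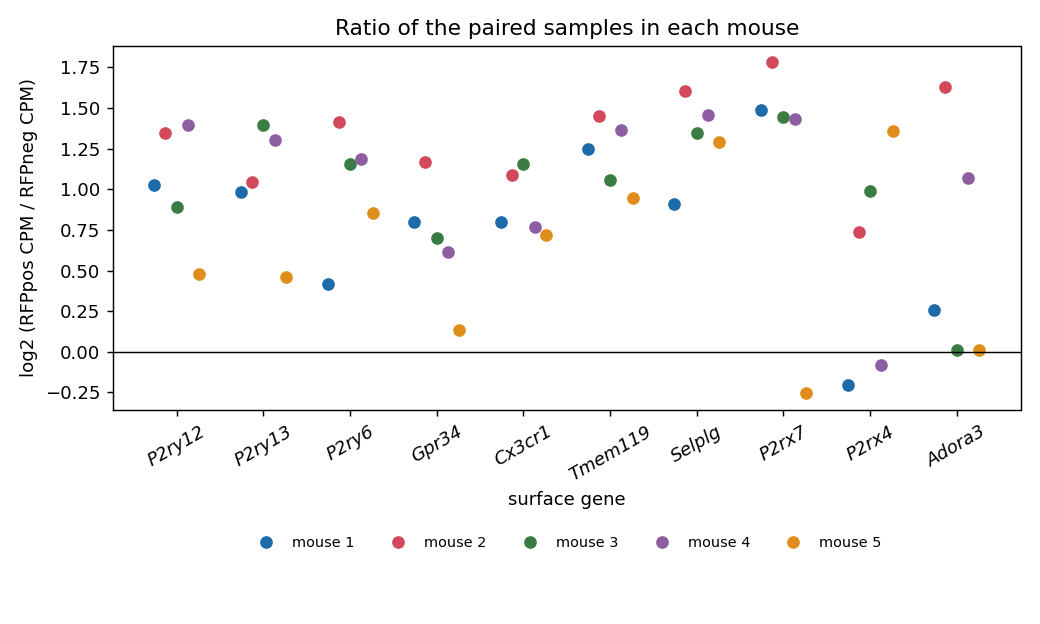
Log2 ratio of the RFPpos to the RFPneg CPM for each of the 10 genes, with 1 point per mouse. Points above 0 mark genes with more CPM in RFPpos, and the points of mouse 5 lie lowest for P2ry12, P2ry13, Gpr34, Cx3cr1, Tmem119, P2rx7 and Adora3, and highest for P2rx4.

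The order of the levels was nearly the same in both populations. Cx3cr1 was followed by P2ry12 in RFPneg and RFPpos, in 5 of 5 samples each. In RFPneg, P2ry13, Selplg, Tmem119 and Gpr34 came next, at 608, 512, 446 and 445 CPM on average, and their ranges overlapped, although P2ry13 was above Selplg in 5 of 5 samples. In RFPpos, Selplg and P2ry13 had nearly equal means, 1248 and 1241 CPM, and could not be ordered, while Tmem119 was above Gpr34 in 5 of 5 samples with ranges that overlapped slightly. P2ry6, P2rx7, P2rx4 and Adora3 formed the lower part in both populations, and P2rx7 and P2rx4 were at the same level in RFPneg, 70.0 ± 8.22 and 68.8 ± 12.6 CPM (SD, n = 5).

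The mice differed in how far the genes rose. The median log2 ratio of the 10 genes was 0.85, 1.38, 1.11, 1.24 and 0.60 in mice 1 to 5. In RFPpos, mouse 5 had the lowest value of 7 of the 10 genes and mouse 1 the highest value of 8. The RFPpos sample of mouse 5 also had the largest share of reads on no gene, 48.6% against 38.4% to 42.1% in the other RFPpos samples, and the RFPpos sample of mouse 1 had the lowest summed astrocyte markers, 1105 CPM against 2769 to 4975. The part of either in the differences between mice was not tested.

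The share of all counts that fell on the 10 genes was 0.891%, 0.510%, 0.575%, 0.538% and 0.787% in the RFPneg samples of mice 1 to 5 and 1.52%, 1.18%, 1.32%, 1.22% and 1.19% in the RFPpos samples. It was higher in RFPpos in 5 of 5 mice, by 0.627 percentage points on average, a ratio between 1.52 and 2.31 within mice. With the reads on no gene included in the total, the difference was 0.326 percentage points. The share of these reads also separated the populations, at 32.05% to 37.21% in RFPneg and 38.4% to 48.64% in RFPpos. Its part in the rise of the 10 genes was not tested.

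To set the 10 genes against the 20 other microglia genes, library sizes were replaced by the summed counts of those 20. This moved the median log2FC of all tested genes from −0.03 to −1.15, so that 72.8% of all tested genes were lower and 0.238% higher in RFPpos at an adjusted p under 0.05 (edgeR). On this scale none of the 10 genes was higher and 1, Gpr34, was lower, with a log2FC of −0.44 (adjusted p = 0.0422). The Gpr34 call did not hold when any of the 5 mice was left out (adjusted p between 0.0591 and 0.117), although its log2FC stayed between −0.50 and −0.39. Without C1qa, C1qb, C1qc and Ctss among the reference genes it was −0.41 (adjusted p = 0.0601). The other 9 genes had log2FC values from −0.54 for Adora3 to 0.20 for Selplg, and 7 of the 10 had values under 0. Without mouse 5, P2rx4 was lower on this scale, at −0.83 (adjusted p = 0.0346), against −0.49 (adjusted p = 0.204) with all mice, −0.33 (adjusted p = 0.433) without mouse 1 and −0.27 (adjusted p = 0.534) without mouse 4. The intervals for P2ry12 (−0.46 to 0.27), Cx3cr1 (−0.58 to 0.14) and Tmem119 (−0.29 to 0.47) leave room for changes in either direction. The 20 other microglia genes, which set this scale, had a median of 0.10 on it, and 4 of them were called themselves: Tyrobp (−0.49) and Lgmn (−0.42) were lower, by about as much as Gpr34, and Fcrls (0.52) and Hpgds (0.44) higher. All 20 were higher in RFPpos relative to all genes, with log2FC values from 0.63 for Tyrobp to 1.64 for Fcrls (adjusted p = 3.68e-06). Ctss, the most abundant of them, had a log2FC of 1.23 relative to all genes. Monocyte markers summed to 626 CPM in RFPneg and 34.5 CPM in RFPpos on average, and neutrophil markers to 3894 and 71.3 CPM. The part of such cells in the counts of the 20 other microglia genes was not tested.

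**Figure D3:**
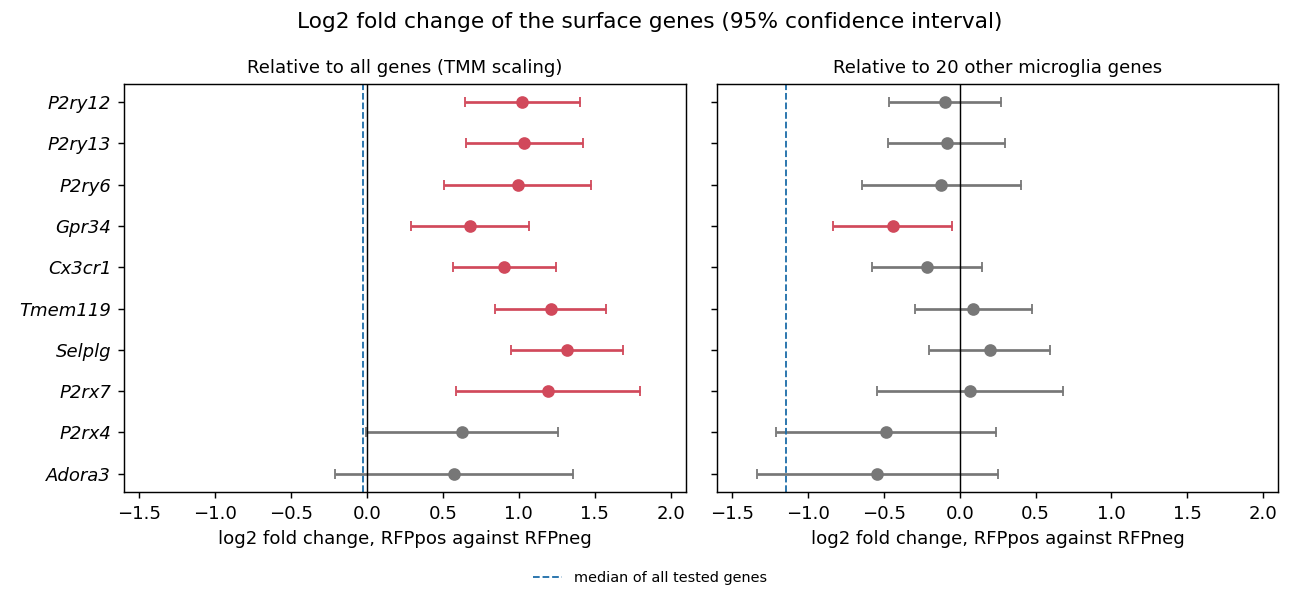
Log2FC of each of the 10 genes, RFPpos against RFPneg, with its 95% confidence interval, relative to all genes on the left and to the 20 other microglia genes on the right. Red marks an adjusted p under 0.05, and the dashed line is the median of the 4210 tested genes, −0.03 on the left and −1.15 on the right.

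Counts on the 10 genes per count on the 20 other microglia genes were 0.515, 0.405, 0.435, 0.455 and 0.468 in the RFPneg samples of mice 1 to 5, and 0.443, 0.374, 0.410, 0.384 and 0.465 in the RFPpos samples. The ratio was lower in RFPpos in 5 of 5 mice, by a very small amount in mouse 5, and the ranges of the populations overlapped. The make-up of the summed counts of the 10 genes, which needs no scaling of libraries, differed little for the most abundant genes, Cx3cr1 and P2ry12. Cx3cr1 gave 45.5 ± 3.30% (SD, n = 5) in RFPneg and 43.0 ± 3.67% in RFPpos, and P2ry12 gave 19.5 ± 2.74% and 19.9 ± 2.08%. Selplg took a larger share in RFPpos in 5 of 5 mice, 9.77 ± 1.03% against 7.75 ± 0.592%, and Gpr34 a smaller share in 5 of 5 mice, 5.52% (4.35% to 6.20%) against 6.83% (5.95% to 8.15%). The shares of the other 8 genes were not on the same side in all mice.

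Of the tested genes outside the 10, those whose centred log2 CPM over the 10 samples lay closest to the mean profile of the 10 genes included Ctsb, a lysosomal protease (root mean square difference 0.113), Fcer1g, an adaptor of Fc receptors (0.126), Sparc, a secreted matrix protein (0.130), and Dhrs3, a retinaldehyde reductase (0.133). Among the 10 genes themselves the difference was smallest for P2ry6 (0.127) and largest for P2rx4 (0.556). Each of the 10 is part of the mean profile, so that their values cannot be set against those of genes outside it.

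The other genes named as P2Y, P2X or adenosine receptors had few counts. None of these 13 genes reached the minimum count, and P2ry4, P2rx2 and P2rx5 had 0 counts in all 10 samples. Their summed level was 96.9 ± 47.8 CPM (SD, n = 5) in RFPneg and 39.0 ± 16.8 CPM (SD, n = 5) in RFPpos, against 6605 ± 1661 and 12922 ± 2158 CPM for the 10 genes. Adora1, the most abundant of the 13, had 53 counts in RFPneg and 27 in RFPpos. Its mean in RFPneg (43.5 CPM) was close to that of Adora3 (42.7 CPM). P2ry14, a UDP-glucose receptor, had 10 counts, all in RFPneg.

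Of 14 genes for the release and breakdown of nucleotides, 3 were tested, with 1 higher and 1 lower in RFPpos. Entpd1, the surface enzyme CD39 that removes ATP and ADP, rose from 156 ± 31.6 to 361 ± 26.3 CPM (SD, n = 5 each), with a log2FC of 1.23 (SE 0.20, adjusted p = 1.48e-04) and higher values in 5 of 5 mice. Enpp2, the secreted enzyme autotaxin and the most abundant gene of the list in RFPneg (Entpd1 in RFPpos), fell from 722 ± 455 to 179 ± 69.7 CPM, a log2FC of −1.84 (adjusted p = 4.44e-04). Autotaxin is known mainly for forming lysophosphatidic acid, so that its fall is not read here as less breakdown of nucleotides. Gja1, which encodes the channel protein connexin 43, had a log2FC of −0.87 (adjusted p = 0.131). With no minimum count it was called lower, at −0.82 (adjusted p = 0.0156). The mice disagreed, with Gja1 lower in RFPpos in 3 and higher in 2. Its values overlapped, from 9.86 to 304 CPM in RFPpos and from 223 to 396 CPM in RFPneg. Nt5e, the enzyme CD73 that makes adenosine from AMP, had 11 counts in the RFPneg samples and 0 in RFPpos, and Alpl, a phosphatase that also acts on nucleotides, had 70 and 1.

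Of 7 genes for ligands of the receptors or for enzymes that make or remove them, 2 were tested. Abhd12, which breaks down lysophosphatidylserine, the ligand of Gpr34, and is the most abundant of the list, rose from a mean of 147 CPM (range 119 to 193) to 345 CPM (range 285 to 402), a log2FC of 1.24 (adjusted p = 1.46e-04). Abhd16a, which makes lysophosphatidylserine, had a log2FC of −0.15 (95% confidence interval −0.83 to 0.52, adjusted p = 0.795). Cx3cl1, the ligand of Cx3cr1, had 24 counts in RFPneg and 5 in RFPpos, and Selp and Sele, which encode P-selectin and E-selectin and bind PSGL-1, had 4 and 2 counts in RFPneg and 0 in RFPpos. Pla1a, another enzyme that forms lysophosphatidylserine, had 11 counts in RFPneg and 0 in RFPpos.

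Of 19 genes that couple the receptors to their effectors, 14 were tested, and 4 were higher and none lower in RFPpos, with a median log2FC of 0.53. Rgs2, a regulator of G protein signalling and the most abundant of the list in RFPpos but not in RFPneg, where Gnai2 was, had 642 ± 170 CPM in RFPneg and 1191 ± 234 CPM in RFPpos (SD, n = 5 each), a log2FC of 0.91 with the smallest adjusted p of the list, 7.11e-04. Rgs10 (0.98, adjusted p = 0.00118), Pik3cg, the kinase subunit activated by G protein beta-gamma dimers (1.28, adjusted p = 0.00200), and Arrb2, beta-arrestin 2 (0.73, adjusted p = 0.0466), also rose. With no minimum count Arrb2 did not pass (adjusted p = 0.0845), at a log2FC of 0.80. The G protein alpha subunits did not pass, with log2FC values of 0.13 for Gnai2 (adjusted p = 0.673), −0.31 for Gnai3, 0.51 for Gnaq and 0.12 for Gna13. Gnai2 had 676 ± 75.5 CPM in RFPneg and 736 ± 48.3 CPM in RFPpos (SD, n = 5 each). The potassium channel gene Kcnk13, which encodes THIK-1, had a log2FC of 0.55 (adjusted p = 0.275). Relative to the 20 other microglia genes, 6 of the 14 were lower and none higher, where 72.8% of all tested genes were lower, so that the count lay under the background.

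The genes downstream of P2rx7 had few counts. Of 7, 3 were tested and 1 passed: Pycard, the inflammasome adaptor ASC, was higher in RFPpos in 5 of 5 mice with a log2FC of 0.67 (adjusted p = 0.0431). With no minimum count Pycard did not pass (adjusted p = 0.0634), at a log2FC of 0.74. Nek7 (0.60, adjusted p = 0.112) and Il18 (−0.56, adjusted p = 0.397) did not pass. Nlrp3 had 39 counts in RFPneg and 51 in RFPpos, and Il1b had 27 and 13.

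**Figure D4:**
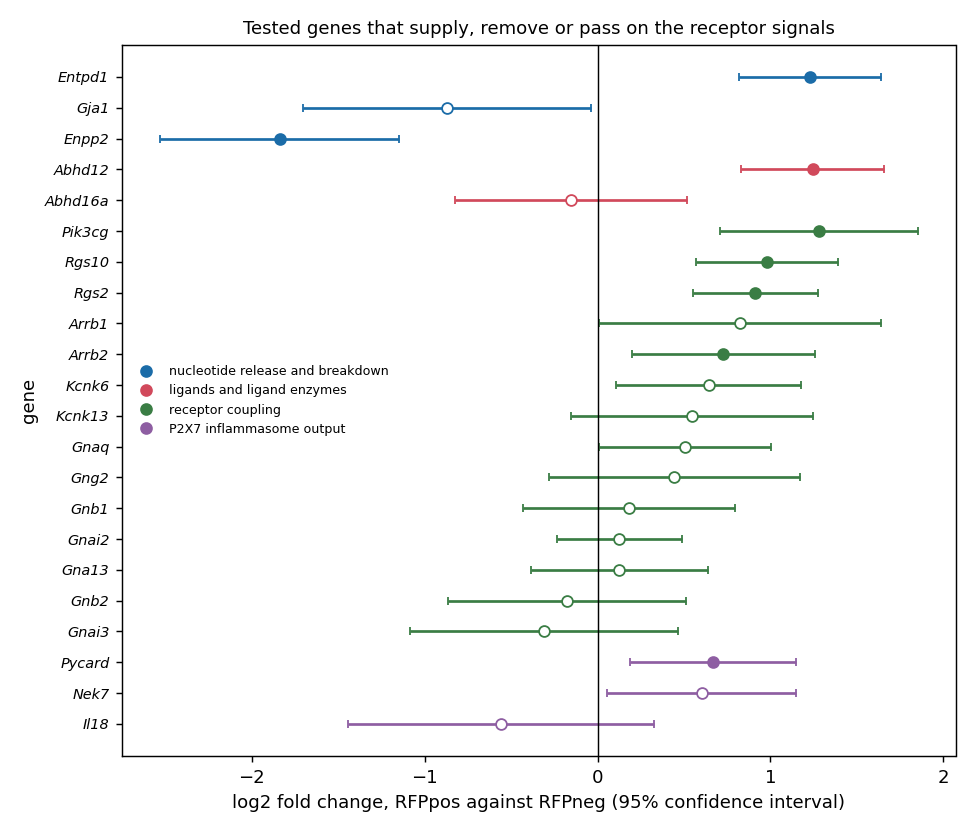
Log2 fold change, RFPpos against RFPneg, with 95% confidence intervals for the 22 tested genes of the lists on nucleotide release and breakdown, ligands, receptor coupling and inflammasome output. Filled points have an adjusted p under 0.05, and among them only Enpp2 lies under 0. Enpp2 is in the list on nucleotides, although its enzyme is known mainly for forming lysophosphatidic acid.

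Among 15 genes known to rise in activated microglia, 13 were tested, with a median log2FC of 0.26, against 1.01 for the 10 surface genes. In RFPpos 4 were higher and 1 lower, against 10.1% and 11.6% of all tested genes. The 4 were Ctsd (1.15, adjusted p = 7.77e-05), Ctsb (1.04), Timp2 (1.02) and Cd63 (0.54), and Lyz2 fell by 0.75 on the log2 scale (adjusted p = 0.00404). Apoe, the most abundant gene of the list in RFPneg (Cd63 in RFPpos), had 1427 ± 251 CPM in RFPneg and 1492 ± 598 CPM in RFPpos (SD, n = 5 each), a log2FC of −0.04 (adjusted p = 0.944). Spp1 and Clec7a had −0.45 and 0.53 and did not pass. Cd9 did not pass either (0.47, adjusted p = 0.0542 from edgeR), although every RFPpos sample lay above every RFPneg sample. Both populations held mixed brain cells, so that these are not levels in microglia alone. The part of other cell types in these values was not tested.

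Markers of several other cell types were lower in RFPpos where the 10 genes were higher, and this moves the share of all counts left to microglial genes. Their part in the rise of the 10 genes relative to all genes was not tested. Of 10 endothelial markers, 7 were tested and all 7 fell, and their summed level in mice 1 to 5 was 1627, 5060, 5415, 7117 and 4044 CPM in RFPneg and 83.8, 166, 147, 334 and 239 CPM in RFPpos, with Flt1 the most abundant in RFPneg, Cldn5 in RFPpos, and Slco1a4 at the smallest p. Neutrophil markers, led by S100a8 in RFPneg and S100a9 in RFPpos, were at 2580, 2700, 7293, 4566 and 2330 CPM in RFPneg and 54.2, 122, 180, 0 and 0 CPM in RFPpos, and 6 of 7 were tested and fell. The oligodendrocyte markers, led by Mbp and with Cldn11 at the smallest p, were at 3351, 1865, 1262, 1197 and 1525 CPM in RFPneg and 399, 163, 281, 171 and 205 CPM in RFPpos, with 7 of 8 tested and lower. The RFPneg sample of mouse 1, which had the highest level of 7 of the 10 genes in that population, had the lowest endothelial sum, but also the highest oligodendrocyte sum and the highest sum of choroid plexus and ependymal markers, 5087 CPM against 899 to 2869 CPM in the other RFPneg samples.

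Myeloid cells related to microglia also express some of the 10 genes. Monocyte markers were at 448, 747, 698, 717 and 518 CPM in RFPneg and 14.8, 37.4, 54.5, 53.1 and 12.8 CPM in RFPpos, all 3 tested of 7 fell (Fn1, S100a4 and Ccr2), and Ly6c2 and Chil3 had 0 counts in RFPpos. Markers of CNS-associated macrophages, led by Mrc1, were at 232, 252, 230, 245 and 264 CPM in RFPneg and 237, 397, 235, 194 and 260 CPM in RFPpos, and neither of the 2 tested genes of 9 passed. The untested markers did not all go the same way: F13a1 had 57 counts in RFPneg and 20 in RFPpos, Ms4a7 42 and 21, and Cd163 9 and 24. Platelets carry P2ry12 as well, and of 6 platelet markers none was tested, Gp1ba and Gp6 had 0 counts, and the sum was 17.7 ± 19.1 CPM (SD, n = 5) in RFPneg and 18.9 ± 13.9 CPM in RFPpos, most of it Gp9. Lymphocyte markers, led by Igkc in RFPneg and Ighm in RFPpos, summed to 371 to 779 CPM in RFPneg and 197 to 262 CPM in RFPpos, and of 12 genes 2 were tested and 1, Igkc, fell.

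Astrocyte markers, led by Slc1a2 in RFPneg and Slc1a3 in RFPpos, were at 3641, 5020, 4773, 3727 and 4165 CPM in RFPneg and 1105, 2769, 4944, 4975 and 4518 CPM in RFPpos, so that RFPpos was not free of astrocyte RNA. Of 8 markers 7 were tested and 2, Slc1a2 and S1pr1, were lower. In the remaining lists the sums were lower in RFPpos in 5 of 5 mice: pericyte and muscle markers (433 ± 130 against 64.7 ± 33.6 CPM, 2 of 8 tested and both lower, led by Rgs5 in RFPneg and Vtn in RFPpos), neuron markers (232 ± 26.7 against 84.4 ± 59.7 CPM, 2 of 6 tested, Stmn2 lower and the most abundant in RFPneg, Map1b in RFPpos), oligodendrocyte progenitor markers (59.6 ± 27.8 against 1.61 ± 2.21 CPM, none of 5 tested, Gpr17 the most abundant in RFPneg), choroid plexus and ependymal markers (2327 ± 1740 against 580 ± 542 CPM, Ttr the only gene of 5 tested, lower) and erythrocyte markers (1188 ± 617 against 58.5 ± 53.7 CPM, Hbb-bs the only gene of 5 tested, lower). Genes of the response to tissue dissociation, led by Junb, summed to 452 ± 87.5 and 372 ± 65.7 CPM (SD, n = 5 each), lower in RFPpos in 4 of 5 mice, and none of the 3 tested of 11 passed. Among the untested genes Dusp1 had 46 counts in RFPneg and 7 in RFPpos (adjusted p = 0.0201 with no minimum count), Egr1 had 47 and 18, and Fos had 12 and 0. Others went the other way, with 11 and 16 counts for Atf3 and 1 and 2 for Hspa1b. The part of these genes in the differences between the populations was not tested.

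**Figure D5:**
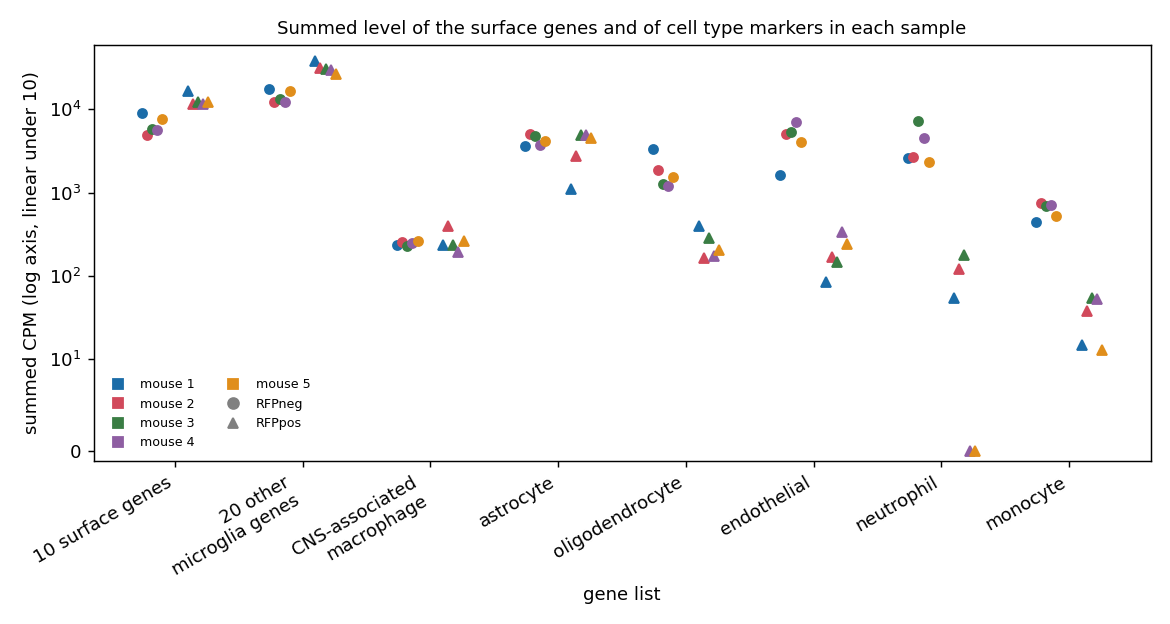
Summed CPM in each sample on a log axis (linear under 10) for the 10 surface genes, the 20 other microglia genes and markers of 6 other cell types, with circles for RFPneg, triangles for RFPpos and a colour per mouse. The 10 genes and the other microglia genes are higher in RFPpos in all 5 mice, and endothelial, oligodendrocyte, neutrophil and monocyte markers are lower in all 5.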

How the data were processed

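Bulk RNA was measured in sorted RFPneg and RFPpos brain cells of 5 mice. The authors prepared QuantSeq 3′ FWD libraries, ran the Lexogen pipeline with molecular identifiers and deposited counts per gene without normalization. The genome build of these counts is not given in the sources used here. Reads on no gene (32.1% to 37.2% in RFPneg and 38.4% to 48.6% in RFPpos) and ambiguous reads (0.295% to 0.436%) stayed out of library sizes. Symbols were found for 47224 identifiers in the table, and positions are from GENCODE M21 (GRCm38). How the counting used strand is not given in the sources used here, so that counts of overlapping genes are uncertain.

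Counts were fitted with edgeR 4.0.16 in R 4.3.3 (quasi-likelihood test, TMM scaling, mouse as a block, Benjamini-Hochberg adjustment). Genes entered the test with 40.7 CPM (10 counts in the median library) or more in 5 samples and a total of 15 or more. The standard error was the log2 fold change divided by the square root of F. In a second fit library sizes were the summed counts of the 20 other microglia genes. The pairing comes from the labels, which give both samples of a mouse the same number. The correlations of deviations from the population means within mice were 0.22, −0.037, 0.14, −0.0051 and 0.015.

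The genes named from each list were the most abundant by mean CPM over all samples, the one with the smallest p in each direction and those tied directly to a receptor. Others, such as Spp1, Clec7a, Cd9, C1qb, Itgam, Nlrp3, Il1b, F13a1, Ms4a7, Cd163, S100a9, Cldn5 and Slc1a3, were added after their values were seen. So were Dusp1, Egr1, Fos, Atf3 and Hspa1b. Likeness was the root mean square difference of centred log2 CPM (prior count 2), of which the 5 closest genes were taken, and 1 of these is not reported here. The 10 genes and the lists were chosen with earlier results of these data known. Alternatives were other scalings, count minimums and tests (edgeR likelihood ratio, DESeq2 1.42.0, limma 3.58.1 with voom), no mouse block, other reference genes and each mouse left out. For the summed share an exact two-sided permutation test within mice was planned. With 5 pairs it cannot go under 0.0625, and it is not given because the genes were chosen with results known. Limits at 0 cover counting error only. The single-cell samples were not analysed here.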

Additional observations from a re-analysis of the deposited data

Results flagged for a closer look

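Samples far from the other 4 of their population were found in 6 of 88 groups of 5 values, and chance gives about 1 in 20 such groups. Of the 10 surface genes, P2ry6 was highest in the RFPneg sample of mouse 1 (158.8 CPM), P2ry12 was highest in the RFPpos sample of mouse 1 (3797 CPM), and P2rx7 was lowest in the RFPpos sample of mouse 5 (68.3 CPM). Cx3cr1 made up 49.4% of the counts on the 10 genes in the RFPpos sample of mouse 5, more than in the other RFPpos samples. The 13 other genes named as P2Y, P2X or adenosine receptors summed to 10.2 CPM, from 3 counts, in the RFPpos sample of mouse 2. The choroid plexus and ependymal markers summed to 1529 CPM in the RFPpos sample of mouse 4. The cause of these values was not tested.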

How the results depend on the processing

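The number of the 10 genes higher in RFPpos was 8 under 8 of the 9 other settings of scaling, minimum count, test and block, and 7 with the reads on no gene in the library size, where Gpr34 did not pass. With each mouse left out it was between 7 and 8. P2rx4 and Adora3 passed under none of these settings, with adjusted p between 0.0652 and 0.672, and both were under the stricter minimum of 20 counts and so have no value there. Every log2 fold change of the 10 genes stayed above 0. P2ry12 and P2ry13 were under a log2FC of 1 with a minimum of 20 counts (0.97 and 0.98) and with the reads on no gene in the library size (0.87 and 0.89). With no mouse block P2ry12 was at the cut (0.9999). P2ry6 was above 1 with no minimum count (1.07).

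Across all tested genes, 283 were higher and 581 lower with the reads on no gene in the library size, against 427 and 489. The median log2FC over all tested genes was then −0.18 in place of −0.03. The number lower was 834 with no minimum count and 324 with a minimum of 20, against 489, where more or fewer genes were tested. With each mouse left out, between 306 and 435 genes were higher and between 349 and 488 lower. Without the mouse as a block, in place of the paired fit, 435 were higher and 482 lower, and 8 of the 10 genes passed. DESeq2 gave 308 and 382, the edgeR likelihood ratio test 503 and 598, and limma with voom 478 and 504.

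Relative to the other microglia genes, the number of the 10 genes that differed was 1 (Gpr34), but 0 with no minimum count and 0 without C1qa, C1qb, C1qc and Ctss among the reference genes. With each mouse left out it was between 0 and 1, where the 1 was P2rx4 without mouse 5. Without the block it was 1.

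The share of counts on the 10 genes was higher in RFPpos by 0.627 percentage points, by construction the same when samples are compared without the pairing into blocks. It was 0.632 with TMM-scaled totals, 0.326 with the reads on no gene, 0.499 without P2ry12, 0.376 without Cx3cr1 (chosen after seeing the data) and between 0.596 and 0.682 with each mouse left out. Adora3, P2rx4, P2rx7 and P2ry6 had 143, 225, 304 and 372 counts in all 10 samples, which limits their precision. The cause of the changes was not tested.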
